A study of Bos taurus with 20 samples.

Results

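Neutrophil granules are filled in sequence while the cells mature in the bone marrow. Primary granules are made first, specific (secondary) granules later, and gelatinase granules last. The genes of the specific granule proteins are transcribed mainly in myelocytes and metamyelocytes, so mature neutrophils in blood carry the proteins but little of the mRNA. The 10 genes described here are LTF and 9 genes of granule or granule-associated proteins of neutrophils, namely LCN2, PGLYRP1, MMP8, MMP9, OLFM4, CHI3L1, ANXA3, CD177 and BPI. They were picked by name, with earlier results of these data known. All 10 symbols were found in the NCBI cattle gene table among the 37063 Entrez identifiers of the counts.

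Whole blood was taken from 20 cows at day 63 of gestation, and RNA was sequenced as 1 library per cow. The paper's methods call the recipients lactating dairy cows, whereas its table of studies lists them as Angus over a range of ages. The age of each cow was not in the labels and was in no fit. Every cow was a recipient carrying a female fetus from an in vitro produced embryo of a beef dam and sex-sorted semen. All cows belonged to 1 group without treatment or control samples, and calf birth weight (BW), from 30 to 72.5 kg, was the one value in the labels that differed between cows. Each cow is named here by the weight of its calf. The question was whether a gene's level in maternal blood varied with the BW of the calf.

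Total counts were between 24632077 and 39892111 per library. Levels are in CPM, counts scaled to the same library total, after TMM scaling, which corrects the totals for differences in composition. The library of the 39 kg calf stood apart. Its CPM matched the average of the 9 other libraries of calves of 43 kg or less, with regression coefficients of 0.0981 to 0.121 for each of these and of -0.010 to 0.0088 for the other 10. Its counts differed from that average by a chi-square of 0.431 per gene over 14333 genes, below the value of about 1 that counting noise gives, whereas the closest mixture for each other library gave at least 9.46. Of 16206 genes, 0 had their highest value in it, against at least 441 in every other library. The cause was not tested. This library was therefore not treated as a cow independent of the others, and the slopes, calls, counts of high values, ranks and correlations of the granule genes are given with and without it. Leaving it out lowered the median level of each granule gene by 0.291 to 16.9%, most for MMP8, whose counts were low.

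The genes differed in how well they were covered. LTF had 5 to 1422 counts per cow (median 44.5) and PGLYRP1 0 to 186 (median 18.5), while CHI3L1 had 1377 to 4660. MMP8 was at 0 counts in 9 of 20 cows and reached 10 counts in 3, so it did not pass the filter of 10 counts in 5 cows. The other 9 genes passed it. Transcript lengths were not used here, so levels are compared between cows and not between genes. For the extreme values of LTF, PGLYRP1 and MMP8 the 95% exact binomial interval is given, which covers counting error only.

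Other genes of specific granule proteins ranged from absent to abundant. CAMP, a cathelicidin, reached at most 0.136 CPM, CRISP3 at most 1.26 CPM, and PTX3 and SLPI had no counts in any cow. TCN1, a vitamin B12 carrier, had a median of 4.68 CPM, HP, haptoglobin, of 60.6 CPM, CYBB, a subunit of the NADPH oxidase, of 312.6 CPM and LYZ, lysozyme, of 1787 CPM. Of the 10 genes, BPI is known from human neutrophils as a primary granule protein and MMP9 as a gelatinase granule protein, so the 10 are called granule genes below.

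LTF encodes lactoferrin, the iron-binding protein that is the classical marker of specific granules. It was at 0.167 CPM in the lowest cow, 1.45 CPM in the median and 48.5 CPM in the highest (20 cows). The highest was the cow of the 35 kg calf (1422 counts, interval 46.0 to 51.0 CPM), which stood 33.5 times above the median and 8.58 times above the next library, that of the 39 kg calf (5.65 CPM). The 9 libraries whose average the 39 kg library matched over all genes include that of the 35 kg calf. Without the 39 kg library, the next was the cow of the 40 kg calf with 5.51 CPM. The lowest were the cows of the 72.5 kg calf (5 counts, interval 0.0541 to 0.389 CPM) and of the 56 kg calf (0.194 CPM, 5 counts, interval 0.0631 to 0.454 CPM). The intervals of the lowest cows overlapped each other, and neither reached the interval of the cow of the 35 kg calf.

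PGLYRP1, a peptidoglycan recognition protein that kills bacteria and is stored in bovine neutrophil granules, ran from 0 to 6.34 CPM with a median of 0.581 CPM. The cow of the 35 kg calf again had the highest value (186 counts, interval 5.46 to 7.32 CPM), 10.9 times the median, and the next was the cow of the 36 kg calf with 1.40 CPM. The cows with calves of 49.5 and 72.5 kg had 0 counts, with intervals that reach up to 0.0922 and 0.123 CPM. MMP8, the neutrophil collagenase, had 113 counts in the cow of the 35 kg calf (3.85 CPM, interval 3.17 to 4.63). It had 23 counts in that of the 40 kg calf (0.571 CPM, interval 0.362 to 0.857) and 17 counts in the 39 kg library (0.460 CPM, interval 0.268 to 0.736). In the other 17 cows MMP8 had at most 6 counts, so differences between them were not detectable at this depth.

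LCN2 encodes lipocalin 2, which withholds iron from bacteria by binding their siderophores. It ran from 8.38 CPM (32 kg calf) to 66.2 CPM (35 kg calf), with a median of 18.4 CPM and 27.4 CPM in the next cow. MMP9, the gelatinase that cuts collagen fragments, ran from 13.7 to 70.2 CPM with a median of 18.97 CPM. Both had their highest value in the cow of the 35 kg calf, at 3.59 and 3.70 times the median.

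OLFM4 encodes olfactomedin 4, a glycoprotein found in the specific granules of some neutrophils, and ran from 2.76 to 12.6 CPM (median 6.46). CHI3L1, a chitin-binding lectin of specific granules, ran from 53.5 to 154.3 CPM (median 101.5). ANXA3, a calcium-dependent phospholipid-binding protein, ran from 1.79 to 6.37 CPM (median 3.96). BPI, which binds and permeabilizes Gram-negative bacteria, ran from 2.60 to 31.5 CPM (median 12.5). All 4 were highest in the cow of the 35 kg calf, but only by 1.26, 1.13, 1.08 and 1.302 times over the next cow. CD177 encodes a surface glycoprotein of neutrophils that also sits in granule membranes. It ran from 0.440 CPM (47.4 kg calf) to 19.1 CPM (41.5 kg calf), with a median of 2.76 CPM, and the cow of the 35 kg calf came second with 7.84 CPM.

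**Figure D1:**
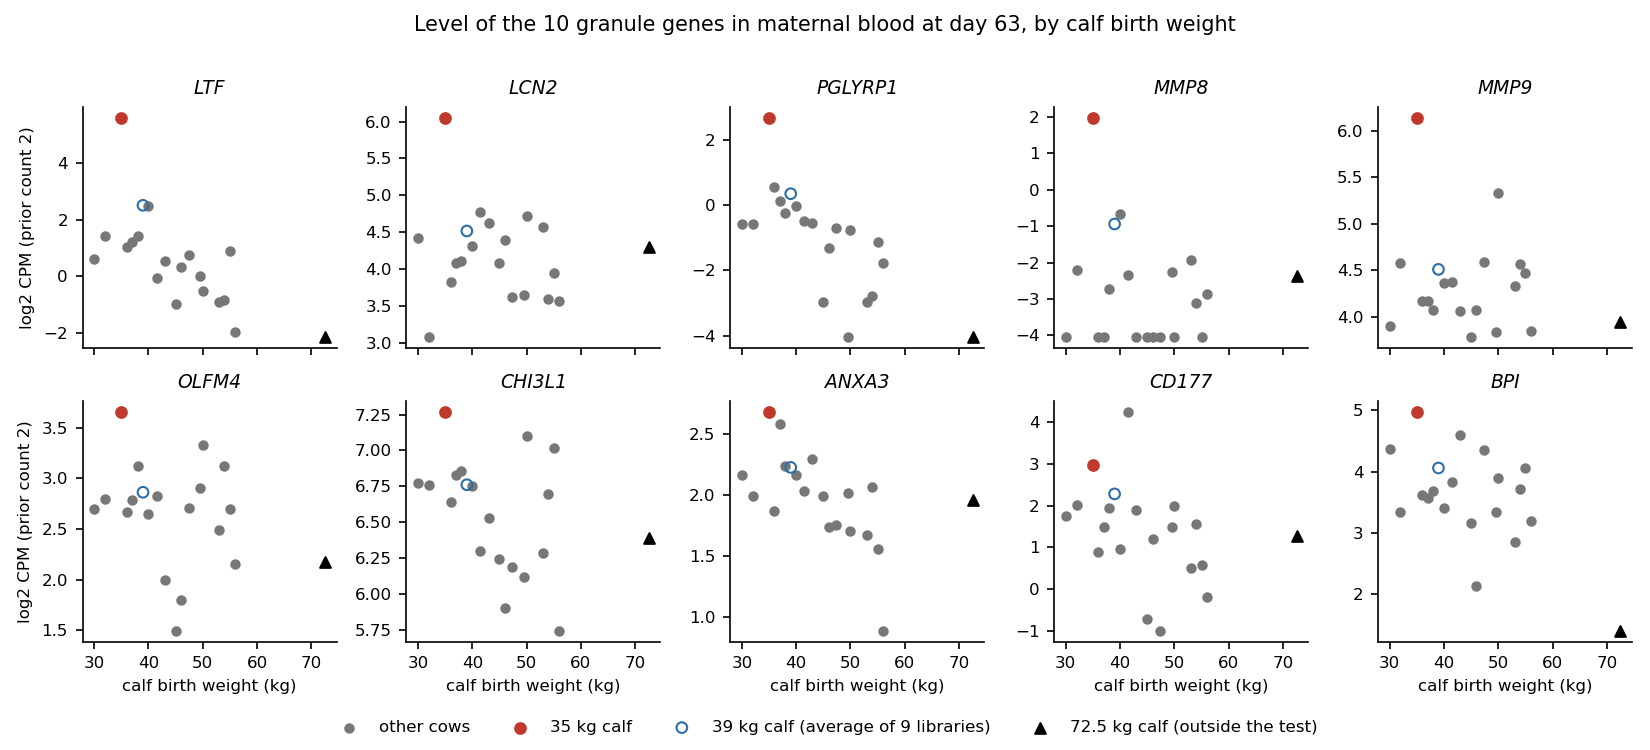
Level of each granule gene in log2 CPM (prior count 2, vertical axis, own scale per panel) against calf BW in kg (horizontal axis) in 20 cows, 1 point per cow. The cow of the 35 kg calf (red) is the highest in 9 of 10 panels. The 39 kg library (open blue) matches the average of 9 libraries over all genes, but its LTF lies below it (209 counts against 274.1). The cow of the 72.5 kg calf (triangle), which was outside the test, is the lowest for LTF, PGLYRP1 and BPI.

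The cow of the 35 kg calf was the highest of 20 for 9 of the 10 genes and for 8 of the 9 that passed the filter. Over all 16206 genes tested, 4.78% had their highest value in this cow. It had at least 4 times the median for LTF, PGLYRP1 and MMP8, of which LTF and PGLYRP1 passed the filter, and 0.661% of all genes tested reached 4 times their median in this cow. Outside it, a value of at least 4 times the median was seen for MMP8 in the 39 kg library and the cow of the 40 kg calf and for CD177 in the cow of the 41.5 kg calf, 6 such values in all and 5 without the 39 kg library. The mean rank of the cow over the 10 genes was 1.10, where 1 is the highest. At the other end were the cows of the 56 kg calf (mean rank 17.2, 1 gene above its median) and of the 45 kg calf (mean rank 16.6, 0 genes above the median). Over the 19 libraries without that of the 39 kg calf these mean ranks were 1.10, 16.2 and 15.6, with 1 gene and 0 genes above their medians in the latter cows.

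Other genes in the cow of the 35 kg calf were set beside these values. For the 9 tested granule genes the median ratio of this cow to the median of all cows was 2.84, with a range of 1.52 to 33.5. For the 16 mature neutrophil markers it was 1.10 (0.778 to 1.40), and their summed level was 8115 CPM, the sixth of 20, with 5855 to 8836 CPM in the other cows. Primary granule genes had a median ratio of 1.003 (0.538 to 1.39), with MPO, myeloperoxidase, at 7.09 CPM against a median of 13.2 CPM. Monocyte markers had a median ratio of 1.14, T cell markers of 1.01, B cell markers of 0.840 and platelet markers of 0.686. The 12 tested genes of other specific granule proteins had a median ratio of 1.17 (0.867 to 4.86), and 2 of them were highest in this cow. Natural killer cell markers had a median ratio of 0.711 and a summed level of 143.1 CPM, the lowest of 20, with 163.5 to 319.7 CPM in the others. IL5RA, the 1 tested eosinophil marker, had a ratio of 0.501.

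Erythroid markers were also high in this cow. Their median ratio was 5.05 (1.01 to 11.1) over 7 genes and their summed level was 540.1 CPM, second of 20 cows, with 53.7 to 1098 CPM in the others. HBB, the beta chain of adult haemoglobin, made up most of it (519 CPM in this cow, median 102.7 CPM, highest 1058 CPM). Mammary genes reached at most 0.705 CPM in any cow. Of these, 5 of 9, the casein genes CSN1S1, CSN1S2 and CSN3 and the whey protein genes LALBA and PAEP, had no counts in any cow. The part of the erythroid cells in the values of this cow was not tested. In whole blood, more cells of a type and more RNA per cell cannot be told apart.

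**Figure D2:**
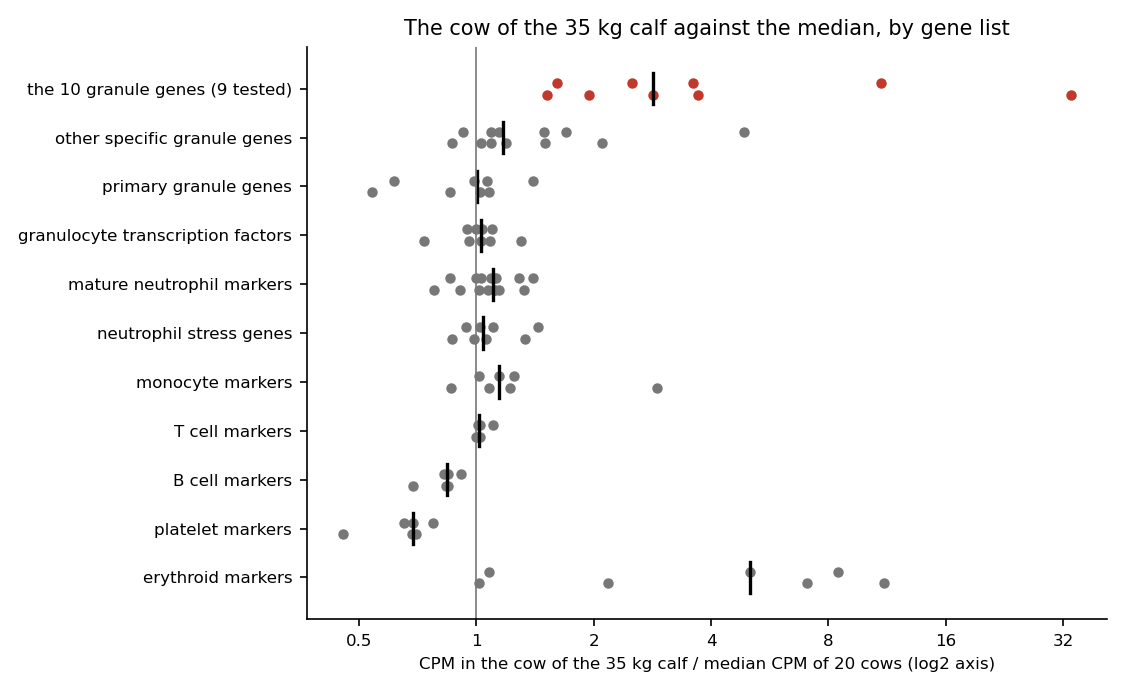
CPM in the cow of the 35 kg calf divided by the median CPM of 20 cows (log2 axis), 1 point per gene tested, grouped by gene list, with the median of each list as a black bar. The granule genes (red) lie between 1.52 and 33.5 with a median of 2.84, the mature neutrophil markers have a median of 1.10 and the erythroid markers one of 5.05.

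The relation to calf BW was then tested gene by gene with edgeR's quasi-likelihood test in 19 cows, leaving out that of the 72.5 kg calf as the study did. The slope is the change in log2 level per kg of calf BW. Of the 9 granule genes tested, 9 had a negative slope, that is, a lower level with a heavier calf, and 3 of these had an unadjusted p below 0.05. Over all 16206 genes, 53.4% had a negative slope, 7.08% had a negative slope with an unadjusted p below 0.05, and the median slope was -0.00072. The granule genes were chosen with earlier results of these data known, so the counts of 9 and 3 are a description and carry no test. After Benjamini-Hochberg adjustment over all genes, 0 granule genes and 0% of all genes passed 0.05 with edgeR.

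The steepest slope was that of LTF, at -0.20 per kg (SE 0.045, edgeR p = 0.000221, adjusted p = 0.0976). This slope corresponds to 0.249 times the level for a calf 10 kg heavier. PGLYRP1 followed with -0.16 per kg (SE 0.039, edgeR p = 0.000563, adjusted p = 0.109), or 0.329 times the level per 10 kg. ANXA3 had a shallower slope of -0.034 per kg with a small error (SE 0.0092, edgeR p = 0.00132, adjusted p = 0.137), or 0.789 times the level per 10 kg. Among the tested cows, the calves of the 3 cows with the lowest ANXA3 weighed 56, 55 and 53 kg, and the highest values were in the cows with calves of 35 and 37 kg. The other slopes were -0.073 for CD177 (SE 0.037), -0.032 for LCN2 (SE 0.019), -0.026 for BPI (SE 0.017), -0.019 for CHI3L1 (SE 0.010), -0.016 for MMP9 (SE 0.017) and -0.013 for OLFM4 (SE 0.014). Their unadjusted edgeR p-values were between 0.0637 and 0.361.

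Calls depended on the tool. With the DESeq2 Wald test, which the study used, LTF (adjusted p = 0.00752), PGLYRP1 (adjusted p = 0.00926) and ANXA3 (adjusted p = 0.0385) passed 0.05 with negative slopes, as did 0.536% of all genes. These 3 genes are in the study's own list of genes associated with BW, chosen on the same cows with the same test. Neither the DESeq2 calls nor the edgeR slopes of these genes are therefore independent evidence of their direction. With limma-voom none of the 9 passed, and the smallest adjusted p among them was 0.236, for ANXA3. The voom slope of LTF was -0.10 per kg (SE 0.051). Without the 39 kg library the voom slope of LTF was -0.11 per kg (SE 0.049), and the smallest limma-voom adjusted p of the 9 was 0.342, again for ANXA3. When edgeR was run on every gene with a count, LTF passed (adjusted p = 0.0429), as did 0.364% of all genes with a negative slope. Without the 39 kg library LTF no longer passed in this fit (-0.20 per kg, edgeR adjusted p = 0.0695), and 0.0608% of all genes did so with a negative slope. In the fit with that library MMP8 had a slope of -0.19 per kg (SE 0.073, edgeR adjusted p = 0.211), while DESeq2 gave -0.035 (SE 0.19). The edgeR slope of MMP8 without it was -0.18 (SE 0.075, edgeR adjusted p = 0.263).

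Leaving out the 39 kg library changed the slopes little. In these 18 cows 9 of 9 slopes stayed negative and the same 3 genes had an unadjusted edgeR p below 0.05, where 6.06% of all genes did so with a negative slope. The adjusted p was 0.171 for LTF, 0.181 for PGLYRP1 and 0.217 for ANXA3, and 0% of all genes passed 0.05 with edgeR. DESeq2 without this library called LTF (adjusted p = 0.0174) and PGLYRP1 (adjusted p = 0.0223), but no longer ANXA3 (adjusted p = 0.0699), with 0.267% of all genes called with a negative slope.

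The size of the LTF slope depended on the cow of the 35 kg calf. Without this cow, the edgeR slope of LTF was -0.10 per kg (SE 0.031, p = 0.00405, adjusted p = 0.2203) and that of PGLYRP1 was -0.11 (SE 0.036, p = 0.00717, adjusted p = 0.247). ANXA3 moved from -0.034 to -0.030 (SE 0.0093, edgeR p = 0.00427, adjusted p = 0.222). LCN2 fell to -0.0054 (SE 0.014) and OLFM4 to -0.0037 (SE 0.013), and MMP9 turned to 0.0093 (SE 0.011). DESeq2 without this cow called LTF (adjusted p = 0.0368) but not ANXA3 (adjusted p = 0.0943), gave no adjusted p for PGLYRP1 (unadjusted p = 0.000895), and called 0.348% of all genes with a negative slope. Without both this cow and the 39 kg library, DESeq2 called 0 of the 9 granule genes (adjusted p = 0.115 for LTF, 0.160 for PGLYRP1 and 0.182 for ANXA3) and 0.0779% of all genes with a negative slope. The edgeR slopes in these 17 cows were -0.088 for LTF (SE 0.028, p = 0.00631), -0.10 for PGLYRP1 (SE 0.037, p = 0.0112) and -0.029 for ANXA3 (SE 0.0097, p = 0.00693).

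**Figure D3:**
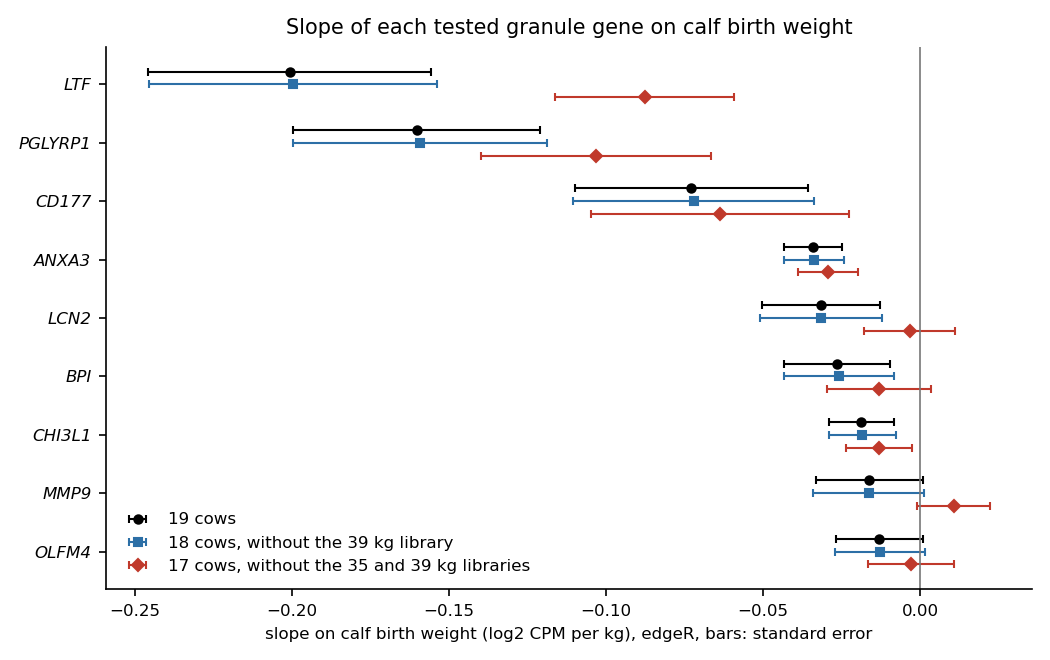
Slope of each tested granule gene on calf BW (horizontal axis, log2 CPM per kg, edgeR) with its standard error as a bar, in 19 cows (black), in 18 cows without the 39 kg library (blue) and in 17 cows without the 35 kg and 39 kg libraries (red). The slope of LTF goes from -0.20 to -0.088 when both are left out, that of ANXA3 from -0.034 to -0.029, and that of MMP9 crosses 0.

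The cow of the 72.5 kg calf, which was not in the test, had the lowest level of 20 for LTF (0.167 CPM), PGLYRP1 (0 counts) and BPI (2.60 CPM). It lay near the middle for LCN2 (19.6 CPM) and ANXA3 (3.83 CPM). With it, the slope in 20 cows was -0.19 for LTF (SE 0.038, edgeR adjusted p = 0.0867), -0.17 for PGLYRP1 (SE 0.035, edgeR adjusted p = 0.0867), -0.019 for ANXA3 (SE 0.0073, edgeR adjusted p = 0.275) and -0.044 for BPI (SE 0.016, edgeR adjusted p = 0.258). Leaving the 39 kg library out of that fit gave edgeR adjusted p-values of 0.143 for LTF and PGLYRP1, 0.357 for ANXA3 and 0.349 for BPI, with slopes of -0.19, -0.17, -0.019 and -0.044.

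The mature neutrophil markers gave a measure of how much neutrophil RNA each library held, as the mean z-score of 16 genes. It ran from -0.866 (45 kg calf) to 1.03 (50 kg calf) and the cow with the 35 kg calf had 0.322. With this score as a covariate the slopes of LTF (-0.20, edgeR adjusted p = 0.0977), PGLYRP1 (-0.16, edgeR adjusted p = 0.105) and ANXA3 (-0.035, edgeR adjusted p = 0.123) kept their size. Without the 39 kg library they were -0.20 (edgeR adjusted p = 0.149), -0.16 (edgeR adjusted p = 0.171) and -0.035 (edgeR adjusted p = 0.201). That of CHI3L1 went from -0.019 (SE 0.010, p = 0.0844) to -0.024 (SE 0.0069, edgeR p = 0.00207, adjusted p = 0.141), and to -0.024 (SE 0.0071, edgeR p = 0.00304, adjusted p = 0.2198) without the 39 kg library.

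Related gene lists were split in direction in the same edgeR test. Of 12 tested genes of other specific granule proteins (20 listed), 6 had negative and 6 positive slopes, 0 had an unadjusted p below 0.05, and the median slope was -0.0017. PLAUR, the urokinase receptor, had 0.017 per kg (p = 0.0846) and ARG1, arginase 1, -0.067 (p = 0.0923), and LYZ, lysozyme, the most abundant at a median of 1787 CPM, had -0.0067 (p = 0.486). Of 8 tested primary granule genes (12 listed) 3 were negative and 5 positive, and 2 of the positive ones had an unadjusted p below 0.05, which 6.78% of all genes had with a positive slope. These were CD63, a granule membrane tetraspanin (0.018, p = 0.00922), and MPO (0.047, p = 0.0331), and SRGN, the serglycin core protein, the most abundant at 2196 CPM, had 0.0085 (p = 0.0805). None of these genes passed 0.05 after adjustment with edgeR.

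Of the 16 mature neutrophil markers, 9 slopes were negative and 7 positive, with a median of -0.00039. ITGAM, the integrin subunit CD11b, had 0.021 per kg (p = 0.00679) and PADI4, which citrullinates histones, 0.034 (p = 0.0188). CSF3R, the receptor of granulocyte colony-stimulating factor and the most abundant at 1840 CPM, had -0.0015 (p = 0.852). CD101, a surface protein of late neutrophils, was the only one with a negative slope and an unadjusted p below 0.05 (-0.019, p = 0.0320), and it was named after its value was seen. Among 9 transcription factors of granulocytes 4 slopes were negative. KLF5 had 0.018 (p = 0.0214), CEBPE, which drives specific granule genes, 0.032 (p = 0.105), and SPI1, the most abundant at 478.7 CPM, 0.0040 (p = 0.381).

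Of 8 tested stress-response genes of neutrophils 2 had negative slopes, with IL18R1 at 0.020 (p = 0.0116), ALOX5AP at 0.010 (p = 0.0741) and the most abundant, IL1RN, at -0.0088 (p = 0.180). Proliferation genes were split 4 and 4, with CDK1 at -0.014 (p = 0.0797), TYMS at -0.0085 (p = 0.0860) and the most abundant, MKI67, at 0.00044 (p = 0.942).

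Markers of other blood cells were followed because they could move with the same cows. Slopes were negative for 7 of 7 tested monocyte markers, among them CSF1R (-0.0088, p = 0.319), for 6 of 6 B cell markers, led by CD79A (-0.0071, p = 0.273) and CD79B (-0.0084, p = 0.302), and for 3 of 6 T cell markers, led by CD5 (-0.0029, p = 0.394) and LCK (-0.0027, p = 0.532). CD22 and CD3E, the most abundant B and T cell markers, had -0.0057 (p = 0.440) and -0.0035 (p = 0.561). Of 7 erythroid markers 6 slopes were negative, with a median of -0.035, and HBB had -0.072 (p = 0.0322) and ALAS2 -0.035 (p = 0.0505). Natural killer cell markers were positive in 6 of 6, with NCR1 at 0.023 (p = 0.0134), KLRF1 at 0.018 (p = 0.657) and the most abundant, GNLY, at 0.0044 (p = 0.793). Platelet markers were positive in 5 of 6, with ITGA2B at 0.021 (p = 0.00647), PPBP at 0.015 (p = 0.369) and the most abundant, TUBB1, at 0.0089 (p = 0.380). The 1 tested eosinophil marker, IL5RA, had 0.053 (p = 0.0102), and 0 of 9 mammary genes could be tested. In these lists the smallest adjusted edgeR p was 0.196, for ITGA2B, and the number of negative slopes in each list was the same without the 39 kg library. Without the cow of the 35 kg calf, 3 of 6 natural killer cell markers were negative instead of 0, with a median slope of -0.00063, and 4 of 6 were so when the 39 kg library was left out too. The part of these cell types in the slopes of the granule genes was not tested.

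The granule genes also varied together between cows. Over 20 libraries, 44 of the 45 pairs had a positive Spearman correlation of log2 CPM, with a median rho of 0.427 and a range of -0.112 to 0.839. Over all pairs of the 16206 genes the median rho was -0.0016 and 49.8% were positive, and 6.02% reached 0.427 or more. Without the 39 kg library the median was 0.409 with 44 pairs positive, and without both the 35 kg and the 39 kg library it was 0.308 with 36 pairs positive. All pairs share the depth and the composition of the same libraries.

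LTF and PGLYRP1 were the closest pair. Over the 19 libraries without that of the 39 kg calf, Pearson's r was 0.827 (permutation p = 3e-05) and Spearman's rho 0.821 (permutation p = 2e-05), with a Benjamini-Hochberg adjusted p over the 45 pairs of 0.00135 and 0.00090. Without the 2 cows farthest from the median of LTF, those of the 35 kg and 72.5 kg calves, r was 0.663. Over 20 libraries 12 pairs had an adjusted Spearman p below 0.05, but without the 39 kg library LTF with PGLYRP1 was the only such pair (19 and 11 pairs for Pearson's r). LTF with CHI3L1 had a rho of 0.593 (permutation p = 0.00825, adjusted p = 0.0664) and an r of 0.620 (permutation p = 0.00373, adjusted p = 0.0280), or 0.526 without the same 2 cows. OLFM4 with CD177 had a rho of 0.649 (permutation p = 0.00349, adjusted p = 0.0664) and an r of 0.522 (permutation p = 0.0218, adjusted p = 0.0579). This r dropped to 0.279 without the cows with calves of 35 and 45 kg, so its size rested on those cows. The rank correlation moved less, from 0.662 over 20 libraries to 0.569 without the same 2 cows. The cow of the 41.5 kg calf, the highest for CD177, was in all of these values.

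For the genes of lactoferrin and lipocalin 2, which both act on iron, the rank correlation could not be told from 0. LTF with LCN2 had a rho of 0.039 (permutation p = 0.877, adjusted p = 0.939) and an r of 0.467 (permutation p = 0.0533, adjusted p = 0.0889) over 19 libraries. Without the cows with calves of 35 and 72.5 kg this r was -0.035. Leaving out the former alone gave -0.081, so this r rested on the cow of the 35 kg calf. The 9 pairs with MMP8, which had no counts in 9 cows, had a median rho of 0.246 over 20 libraries, and the 36 pairs without it one of 0.467. These medians were 0.1502 and 0.431 without the 39 kg library.

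**Figure D4:**
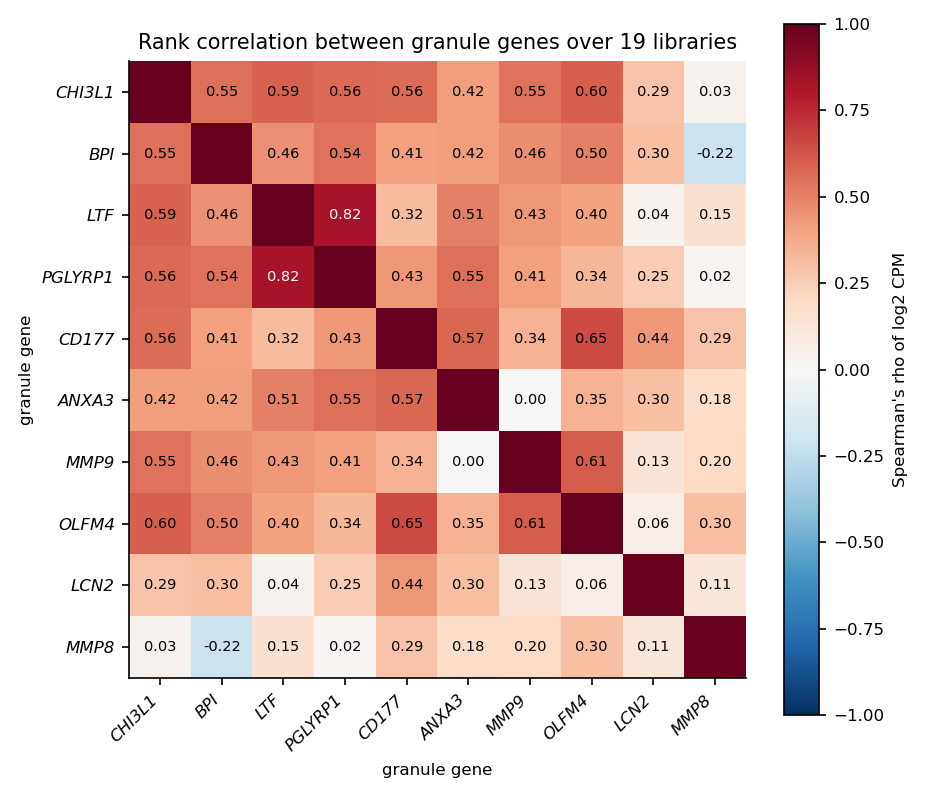
Spearman's rho of log2 CPM for each pair of the 10 granule genes over 19 libraries, without that of the 39 kg calf (colour scale from -1 to 1, genes ordered by their median rho). LTF with PGLYRP1 has the highest value at 0.82, and pairs with LCN2 or MMP8 reach 0.30, apart from LCN2 with CD177 at 0.44.

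Across all other tested genes, PGLYRP1 had the highest rank correlation with LTF over 20 libraries (rho 0.839, first of 16205 genes), and the fourth highest without the 39 kg library. The other tested granule genes came lower in the same order, at rank 293 for CHI3L1 (rho 0.602), 516 for ANXA3 (rho 0.553), 854 for BPI (rho 0.499), 1207 for MMP9 (rho 0.457), 1468 for OLFM4 (rho 0.427), 1794 for CD177 (rho 0.397) and 6215 for LCN2 (rho 0.102). The median rho with LTF over all genes was -0.0075 and the upper 5% began at 0.505, a value that CHI3L1 and ANXA3 passed and BPI did not. The ranks without the 39 kg library were 323 for CHI3L1, 774 for ANXA3, 1141 for BPI, 1418 for MMP9, 1704 for OLFM4, 2663 for CD177 and 7316 for LCN2. Without the cow of the 35 kg calf CHI3L1 was at rank 587 and ANXA3 at rank 952, with a rho of 0.479 for ANXA3. When both were left out, the ranks were 652 and 1480, with a rho of 0.418 for ANXA3.

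The 10 genes outside the granule list with the levels most like LTF were PRDM8 (rho 0.835), LOC100848205 (0.820), LOC101904166 (0.817), DDX47 and HPRT1 (both 0.814), ARFGAP3 (rho 0.8), MGST1 (0.792), LOC781724 (0.783), CDC42BPB (0.779) and RPS7 (0.777). PRDM8, which encodes a chromatin regulator, was first without the 39 kg library (rho 0.844). Their own slopes on BW ran from -0.059 per kg for LOC101904166 to -0.0068 for ARFGAP3, all shallower than that of LTF. With DESeq2, PRDM8 (adjusted p = 0.0357) and LOC781724 (adjusted p = 0.0389) passed 0.05 and the rest of the 10 did not. Of all genes, 0.536% passed with a negative slope. The edgeR p was 0.000506 for PRDM8 and 0.000933 for LOC781724. These genes were picked out of 16205 for their likeness to LTF, which had a negative slope in the same cows. Their correlations, slopes and calls are therefore a description and carry no test, also beside the share of all genes.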

How the data were processed

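Whole blood of 20 cows was sequenced, with 1 library per cow. The authors checked reads with FastQC 0.11.9, trimmed them with Trimmomatic, aligned them with STAR 2.7.0b to the cattle genome and counted them with featureCounts (Subread 2.0.3), and they deposited raw counts per Entrez gene without normalization. The paper names a TruSeq and the labels a SMARTer stranded kit. The strand setting and the handling of multi-mapping reads are not given in the sources used here, so genes with near-identical copies are uncertain. Symbols came from the NCBI table of the ARS-UCD2.0 assembly, another build than the authors', so no coordinates or sequences are printed.

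CPM, log2 CPM (prior count 2) and slopes on BW came from edgeR 4.0.16 (R 4.3.3), with TMM and the quasi-likelihood test over 16206 genes (minimum 10 counts in 5 of 19 cows), adjusted by Benjamini-Hochberg. Alternatives were DESeq2 1.42.0, voom in limma 3.58.1, other filters and size factors, all 20 cows, the rank of BW, covariates and leaving out each cow. Fits and correlations without the 39 kg library, and DESeq2 without the 35 kg cow, were added after seeing the data. With 1 cow per library, p-values measure the spread between cows, but where the 39 kg library is included they count it as 1 more cow. No batch is named in the labels. Permutation tests were two-sided with 100000 resamples (smallest p 1e-05). The edgeR step was also run on simulated counts, but the share of changed genes it recovered is not reported here. Intervals were exact binomial at 95%.

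The 10 genes and all gene lists were chosen with earlier results of these data known. Named from the other lists were genes with an adjusted p below 0.1, the 2 smallest p-values and the most abundant gene, and the 10 genes most like LTF by Spearman's rho. The values of 1 monocyte marker under this rule are not reported here. Permutations and plots were made in Python 3.11.15 with matplotlib 3.10.9, scipy 1.17.1, pandas 2.3.3 and numpy 2.4.6.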

Additional observations from a re-analysis of the deposited data

How the results depend on the processing

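Over 36 alternatives for each of 9 slopes, 313 of 324 kept their direction and side of the threshold, 7 passed an adjusted p of 0.05 and 4 changed sign. DESeq2 gave -0.20 for LTF, -0.16 for PGLYRP1 and -0.033 for ANXA3 and called all 3. Without the 39 kg library it gave -0.20 for LTF and -0.16 for PGLYRP1 and called 2, and without the cow of the 35 kg calf it gave -0.10 for LTF and called 1. edgeR on any gene with a count gave -0.20 for LTF and called 1, and called 0 without the 39 kg library. The adjusted p of LTF was between 0.0507 and 0.226 in the 19 edgeR fits that left out 1 cow. MMP9 turned positive without the cow of the 35 kg calf, at 0.0098 with DESeq2, and without this cow and the 39 kg library, at 0.011 with both edgeR and DESeq2. In the edgeR fits that left out 1 cow, MMP9 slopes ran from -0.025 to 0.0093 and LTF slopes from -0.24 to -0.10, with 0 adjusted calls among the 9 genes. A threshold of 3 times the median gave 11 high values and of 2 times 20, against 6 at 4 times, all with the 39 kg library. Those at 2 times include MMP8, with a median of 2 counts, in the cows of the 32, 41.5, 49.5, 53 and 72.5 kg calves. MMP8 had at most 6 counts in each of these cows, so these values lie at the floor. The median rho ran from 0.332 (without the 35 kg cow) to 0.453 with 1 cow left out, was 0.427 with a prior count of 0.5 and 0.368 after the neutrophil score. The causes of these changes were not tested. No paired analysis was possible because all cows form 1 group.

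The count of 9 negative slopes, and the 3 with an unadjusted p below 0.05, stayed within 1.5 times under all 36 alternatives, although the 3 with voom in 19 cows held CHI3L1 in place of LTF. Depth limits MMP8 and the low end of LTF and PGLYRP1. Genes of 1 blood sample share cells and depth, so the 9 slopes are not independent of each other.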

Other observations

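ARG1, an arginase of neutrophil granules outside the 10 genes, was also highest in the cow of the 35 kg calf, at 3.03 CPM against a median of 0.624 CPM, as were CRISP3 at 1.26 CPM and HP, haptoglobin, at 127.4 CPM against a median of 60.6 CPM. ARG1 and HP were the 2 of 12 tested genes of other specific granule proteins that were highest in this cow, with a median ratio of 1.17 over the 12, and CRISP3 did not pass the filter. HP had a slope on BW of -0.0035 (edgeR p = 0.831). In the 39 kg library, LTF had 209 counts where the average of the 9 libraries gave 274.1, while OLFM4 had 267 against 265.5 and ANXA3 171 against 172.4. These values were named after they were seen.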
